A study of Homo sapiens with 3 samples.

Results

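Positions with A-to-G changes in cells that carried DDX41-ADARcd and not in cells that carried ADARcd alone are described here. Every row of the deposited comparison of these 2 libraries was taken, and rows that repeat a position were joined, which gave 10407 sites in 4036 genes, of 16820 positions in the 3 lists of the series. The cells were THP-1, a human monocytic leukemia line. All were transduced with a pGK-GFP retrovirus made in 293T cells and harvested 7 days later for total RNA, and the groups were the virus with no transgene (empty vector), with ADARcd alone and with DDX41-ADARcd, 1 library each. With 1 library per side there was no replicate error, so every value below describes the reads of those libraries and not the conditions. The labels name the vector and transgene of each library, and give neither sorting, clones nor the level of the transgene.

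HyperTRIBE joins an RNA-binding protein to a hyperactive catalytic domain of ADAR, an enzyme that deaminates adenosine to inosine, which is read as guanosine after reverse transcription. The domain alone shows where the enzyme edits without a partner, and the fusion is meant to mark RNA near the partner. DDX41 is a DEAD-box helicase that is mutated in myeloid neoplasms and has been linked to pre-mRNA splicing, snoRNA processing, R-loops and the sensing of nucleic acids. ADAR enzymes act on double-stranded RNA, in human cells mostly in inverted copies of repeats in introns and 3' UTRs. They disfavor a guanine before the edited adenosine and favor a guanine after it.

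Most sites with at least 4 edited reads lay in 3' UTRs. The 21 bases around 6 sites of 3' UTRs, chosen after their values were seen for their edited reads or for a sequence that many genes share, are shown beside the levels given further on. They are read 5' to 3' from GENCODE 29 transcripts on GRCh38, with the edited A as the capital letter and t standing for uracil.

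RNF24, position 3929317 of chromosome 20, minus strand: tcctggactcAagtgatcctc
APOL6, position 35661210 of chromosome 22, plus strand: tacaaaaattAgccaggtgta
BPNT1, position 220058640 of chromosome 1, minus strand: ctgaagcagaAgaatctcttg
CRCP, position 66153900 of chromosome 7, plus strand: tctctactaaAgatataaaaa
SLC35E2B, position 1663635 of chromosome 1, minus strand: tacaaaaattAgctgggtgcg
IL17RA, position 17110351 of chromosome 22, plus strand: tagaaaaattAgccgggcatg

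The same window is shown for sites in coding exons and in non-coding RNA, where the level was lower and the depth higher.

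DDX41, position 177515022 of chromosome 5, minus strand: ggttcaggcaAgacactggtg
DDX41, position 177512584 of chromosome 5, minus strand: atgtcctagtAgccacagacg
LYST, position 235766129 of chromosome 1, minus strand: cctcctactaAtacttacgtt
GAS5, position 173864028 of chromosome 1, minus strand: gaagcttactAcagcctcaaa
LRRC75A-AS1, position 16441667 of chromosome 17, plus strand: tcaatcacccAggcctaagca

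RNF24, a RING-finger membrane protein, held the site with the most edited reads of the list, 10 of 17 in DDX41-ADARcd (58.8%, exact Clopper-Pearson 95% interval 32.9 to 81.6) and 0 of 17 in ADARcd alone, where a count of 0 allows up to 17.6% (3 reads of the depth). The other 10 listed sites of its 3' UTR had 1 or 2 edited reads of 8 to 18. APOL6, an interferon-induced apolipoprotein L, followed with 6 of 19 reads (31.6%, 12.6 to 56.6) against 0 of 19. Its other 12 sites, all in the 3' UTR, had 1 edited read each. Both genes were named for these sites, so a site above its neighbors follows from the choice. The intervals overlapped those of neighbors, such as 2 of 8 reads in RNF24 (3.19 to 65.1) and 1 of 7 in APOL6 (0.361 to 57.9). Intervals and floors cover counting error only, since PCR reads without molecular identifiers are not independent molecules.

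BPNT1, a nucleotidase of sulfur metabolism, had 6 of 11 reads edited (54.5%, 23.4 to 83.3) against 0 of 13. GM2A, the activator of ganglioside breakdown in lysosomes, had 5 of 28 (17.9%, 6.06 to 36.9) against 0 of 38, and the adenosine just before it 3 of 28 (10.7%, 2.27 to 28.2). CRCP, an RNA polymerase III subunit, had 5 of 19 (26.3%, 9.15 to 51.2) against 0 of 12. These levels rest on few reads: the floor in ADARcd alone was 23.1% for BPNT1, 7.89% for GM2A and 25% for CRCP. PRR11, a cell-cycle gene, had 6 of 9 reads edited (66.7%, 29.9 to 92.5) against 0 of 16 at position 59203390 of chromosome 17, in an intron, and with under 10 reads it was not tested.

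Edited reads were few over the list as a whole. A single edited read supported 8730 sites, and 2 supported 1571. Sites with at least 2 edited reads numbered 1677, 16.1% of the list, and those with at least 3 numbered 106, 1.02%. There were 78 sites with 3 edited reads, 20 with 4, 2 with 5, 3 with 6, 2 with 8 and 1 with 10. The median depth was 30 in DDX41-ADARcd (quartiles 13 to 90, range 1 to 7628) and 45 in ADARcd alone (20 to 138, range 10 to 9375).

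The level of most sites followed their depth. It had a median of 16.7% over the 1580 sites with under 10 reads in DDX41-ADARcd, 3.70% over the 2661 sites with 20 to 49 reads and 0.127% over the 828 sites with 500 reads or more. The share of sites with at least 2 edited reads was nearly flat over the same range. It was 16.3% (14.5 to 18.2) under 10 reads, 15.4% (14.1 to 16.8) at 20 to 49, 16.1% (14.3 to 17.9) at 100 to 499 and 18.5% (15.9 to 21.3) at 500 or more. A level from 1 edited read is therefore 1 divided by the depth and gives no order of genes.

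Changes from A to C and from A to T at the same positions gave a level of other mismatches. The list requires at least 80% A in ADARcd alone, so these changes are limited there too, but not to 0. They made up 0.137% of the reads in DDX41-ADARcd (2210 of 1610344) and 0.1% in ADARcd alone (2261 of 2261388). At least 1 such read was present at 11.4% of the positions in DDX41-ADARcd and at 10.4% in ADARcd alone. Of the positions with one in DDX41-ADARcd, 74.3% had 1 such read, 13.1% had 2 and 12.6% had 3 or more. In ADARcd alone the shares were 64.4%, 17.8% and 17.8%. The listed A-to-G changes had 3 or more reads at 1.02% of the sites. These shares are not alike in selection, since the list requires 0 edited reads in ADARcd alone and sets no such condition on the other changes. At the 8 sites with 5 or more edited reads there was no other mismatch, in 528 reads of DDX41-ADARcd and 184 of ADARcd alone.

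**Figure D1:**
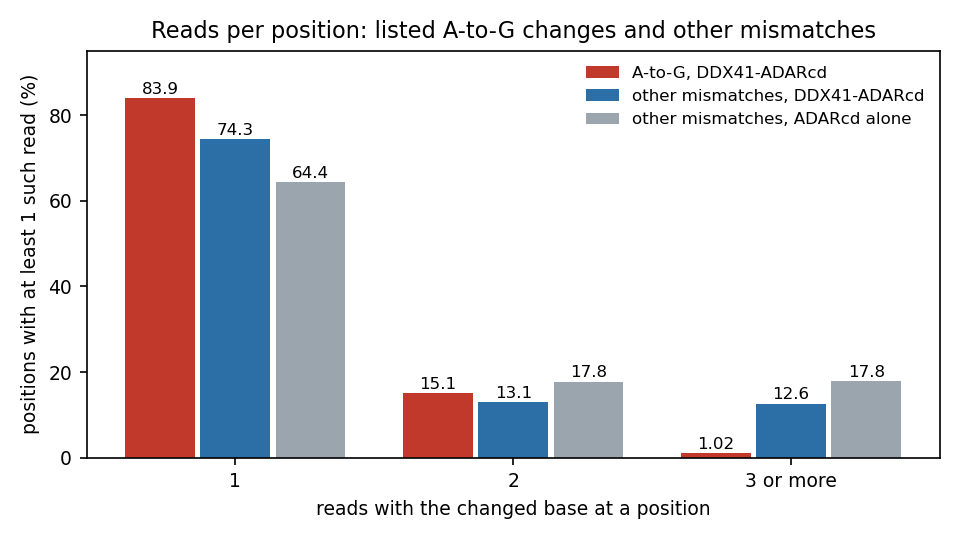
Share of positions (%, vertical axis) with 1, 2 or 3 or more reads of a changed base (horizontal axis), among positions with at least 1, for the listed A-to-G changes and for A-to-C and A-to-T changes at the same positions in each library. A single read accounts for 83.9%, 74.3% and 64.4%, and 3 or more reads for 1.02%, 12.6% and 17.8%.

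No site differed between the libraries after adjustment. Fisher's exact test, two-sided, was run on the 8827 sites with at least 10 reads in both. With Benjamini-Hochberg adjustment 0 (0%) were under 0.05, and 39 (0.442%) had an unadjusted p under 0.05. The smallest p was 0.000297, in RNF24, with an adjusted p of 0.541. ADARcd alone has 0 edited reads at every listed position, so a difference could appear in 1 direction only and the selection favors small p. At the median depths 4 edited reads (13.3%) were needed for an unadjusted p under 0.05, and 12 (40%) for 0.05 divided by the sites tested, so smaller differences were not detectable at this depth.

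Of the 39 sites, 20 were in 3' UTRs, 12 in coding exons, 4 in non-coding exons and 3 in introns, and 34 had no other mismatch in either library. Those of the highest depth had low levels. RPSA, the laminin receptor protein of the small ribosomal subunit, had 3 of 426 reads edited (0.704%) against 0 of 788, and SMAP2, a GTPase-activating protein of vesicle traffic, 3 of 359 (0.836%) against 0 of 649, where 3 reads in ADARcd alone carried another mismatch. RPSA was named after its values were seen. BPNT1, SLC35E2B, SPN, GM2A and PGAM5 followed RNF24 with unadjusted p from 0.00343 to 0.0123, each with an adjusted p of 0.541.

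**Figure D2:**
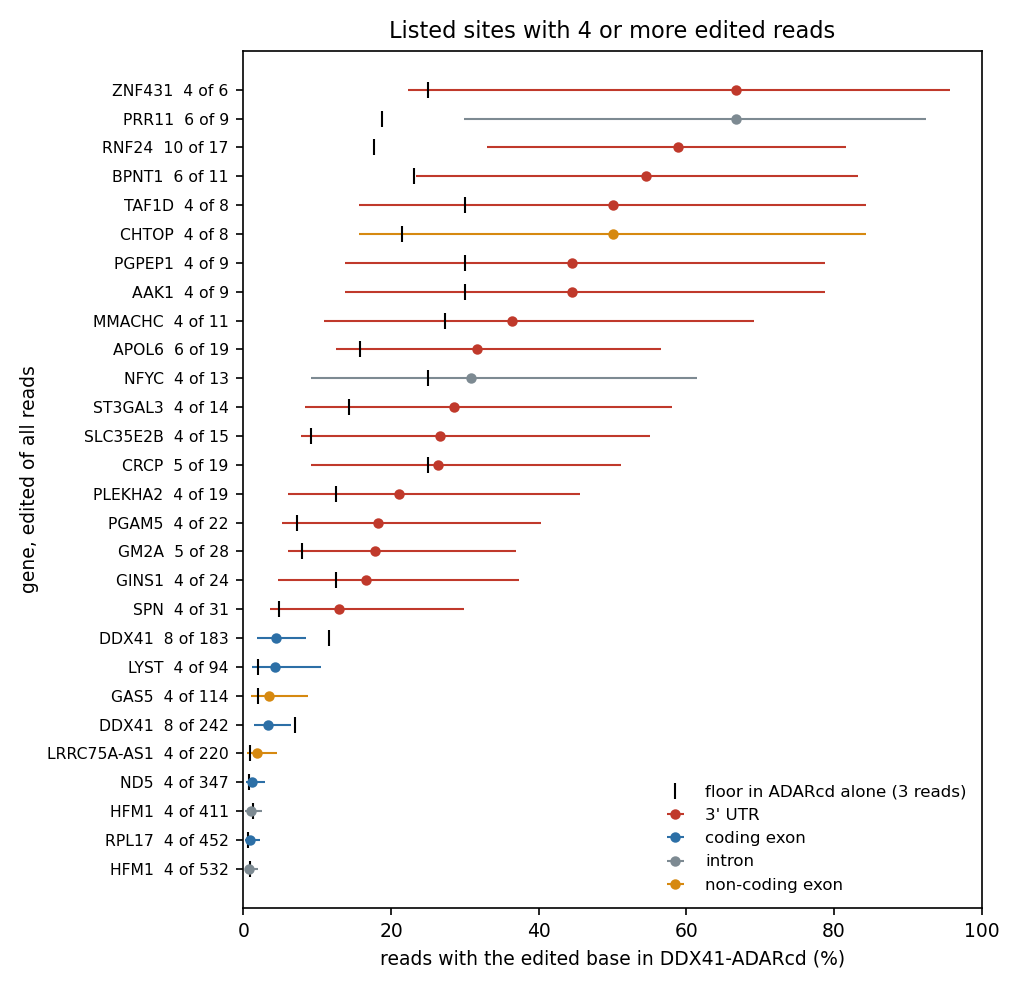
Editing level in DDX41-ADARcd (%, horizontal axis) at 28 sites, those with at least 4 edited reads, with exact 95% intervals, colored by region, and the floor that 0 edited reads allow in ADARcd alone as a black tick. The levels run from 0.752% in HFM1 to 66.7% in ZNF431 and PRR11, and the interval reaches below the floor for all of them but RNF24, PRR11 and BPNT1. The floor is 3 reads of the depth, which is not the same kind of limit as the exact interval. For BPNT1 the lower limit of 23.4% and the floor of 23.1% nearly meet, so it is not set apart by this.

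Among the 28 sites with 4 or more edited reads, 3' UTR sites were sparse and most coding and non-coding exon sites deeper. In 3' UTRs lay 16 of them (57.1%, 37.2 to 75.5), with a median of 16 reads and a median level of 30.1%. The 5 in coding exons had a median of 242 reads and a level of 3.31%, and the 3 in non-coding exons 114 reads and 3.51%. Those in coding exons include the sites of DDX41, with 183 and 242 reads, where reads of the fusion count too. The 4 in introns had medians of 212 reads and 15.9%, which describe none of them. They were in PRR11 (6 of 9 reads), NFYC (4 of 13) and HFM1 (4 of 411 and 4 of 532). The HFM1 sites had 12 and 10 reads of other mismatches in the fusion library. Besides the genes above, the 3' UTR sites with 4 edited reads were in ZNF431, a zinc-finger gene (4 of 6 reads), TAF1D, a subunit of the RNA polymerase I factor SL1 and a snoRNA host (4 of 8), PGPEP1, a peptidase (4 of 9), AAK1, a kinase of endocytosis (4 of 9), MMACHC, a cobalamin-processing enzyme (4 of 11), ST3GAL3, a sialyltransferase (4 of 14), SLC35E2B, a predicted transporter (4 of 15), PLEKHA2, an adaptor protein (4 of 19), PGAM5, a mitochondrial phosphatase (4 of 22), GINS1, a DNA replication factor (4 of 24), and SPN, the leukocyte sialoglycoprotein CD43 (4 of 31). CHTOP, an mRNA export factor, had 4 of 8 reads edited in a non-coding exon.

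Of the listed genes that host snoRNAs, the guides of ribosomal RNA modification, 3 had a site with 4 edited reads. TAF1D had the sparsest, with 4 of 8 reads (50%) against 0 of 10 in its 3' UTR. GAS5, a non-coding host, had 4 of 114 reads edited (3.51%, 0.964 to 8.74) against 0 of 157, and 3 of 17 (17.6%, 3.80 to 43.4) against 0 of 17 at a second position. LRRC75A-AS1, another non-coding host, had 4 of 220 (1.82%, 0.498 to 4.59) against 0 of 332. The host list is not exhaustive. RPL17, a protein of the large ribosomal subunit, is outside it, though its site lay 55 bases from the snoRNA SNORD58C. This site, also part of the readthrough transcript RPL17-C18orf32, had 4 of 452 reads edited (0.885%, 0.242 to 2.25) against 0 of 489. Over 27 listed host genes, 19 of 136 sites had at least 2 edited reads (14.0%, 8.63 to 21.0), against 16.1% over all sites. The interval includes the share of all sites. With at least 3 edited reads it was 4 of 136 (2.94%), against 1.02% over all sites, which was not tested.

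The share of sites with a guanine after the edited A differed little between sites with 1 and with 3 or 4 edited reads. A guanine followed the edited A at 37.3% (36.2 to 38.3) of the sites with 1 edited read, at 36.0% (33.5 to 38.6) with 2 and at 35.4% (25 to 47) with 3 or 4. Other A within 50 bases on the same transcripts had it at 29.6%. A guanine preceded the A at 28.9% (27.9 to 29.9), 27.0% (24.7 to 29.4) and 22.8% (14.1 to 33.6), and at 27.5% of the other A. With 3 or more edited reads a guanine preceded at 36% of the sites in coding exons and 12% of those in 3' UTRs, against 31.8% and 22.6% with 1. From 1 to 3 or 4 edited reads, a cytosine after the A went from 18.3% (17.5 to 19.2) to 27.8% (18.3 to 39.1) and a uracil after it from 15.6% (14.8 to 16.4) to 8.86% (3.64 to 17.4). Among sites with 5 or more edited reads, 7 had a transcript base. A guanine followed at 6 of them (85.7%, 42.1 to 99.6) and preceded at 0 of them (0% to 41%). Over the 24 sites with 4 or more, it followed at 12 (50%, 29.1 to 70.9) and preceded at 2 (8.33%, 1.03 to 27.0).

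In the list of ADARcd alone against the empty vector, which shares the ADARcd library, the same shares moved with the edited reads. A guanine followed at 38.4% (37.0 to 39.8) of its sites with 1 edited read, at 51.2% (44.8 to 57.6) with 3 or 4 and at 55.1% (48.8 to 61.3) with 5 or more. A guanine preceded at 27.7% (26.4 to 29), 13.4% (9.42 to 18.3) and 4.30% (2.16 to 7.56), and a uracil at 15.3%, 30.9% and 44.9%. For DDX41-ADARcd against ADARcd alone a uracil preceded at 13.4%, 19.0% and 28.6% of the same classes. The classes of 3 or more edited reads held 86 sites in the fusion's list and 502 in that of ADARcd alone. In the fusion's list against the empty vector, which shares the fusion library, the shares moved as well. From 1 edited read to the 28 sites with 5 or more, a guanine followed at 35.8% and 46.4%, a guanine preceded at 29.9% and 10.7% and a uracil preceded at 12.1% and 35.7%. The list of DDX41-ADARcd against ADARcd alone leaves out every position with an edited read in ADARcd alone, a condition the other lists do not have. Its part in the shares was not tested. The difference between the lists was not tested, since positions are not replicates.

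**Figure D3:**
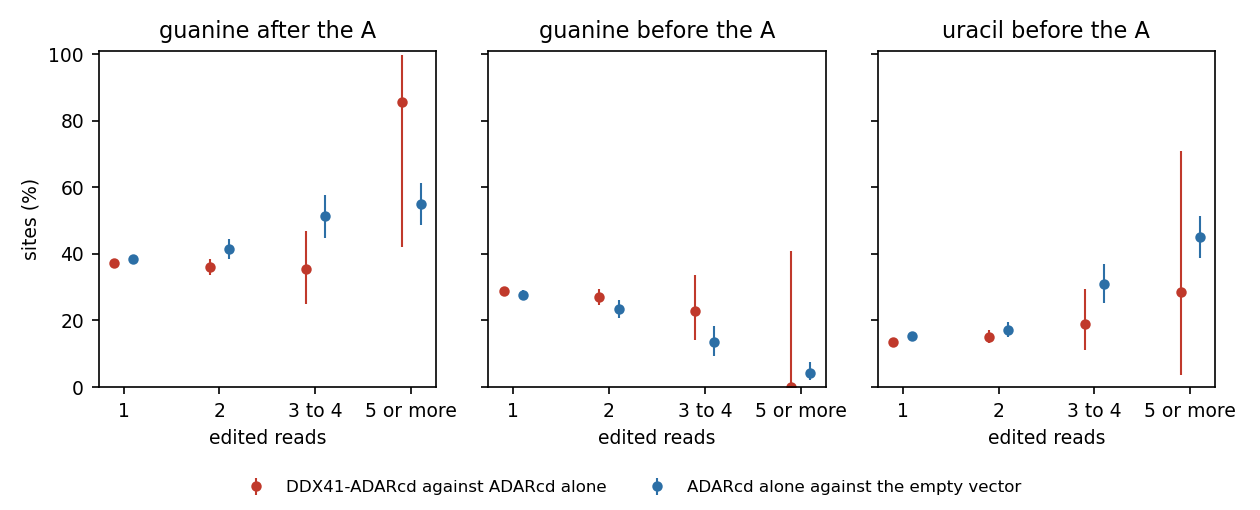
Share of sites (%, vertical axis) with a guanine after, a guanine before or a uracil before the edited A, by number of edited reads (horizontal axis), for the fusion against ADARcd alone and for ADARcd alone against the empty vector, with exact 95% intervals. From 1 to 3 or 4 edited reads, the share with a guanine after goes from 37.3% to 35.4% for the fusion and from 38.4% to 51.2% for ADARcd alone. The fusion's list here leaves out positions with an edited read in ADARcd alone.

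Sites with 3 or more edited reads lay more often than those with 1 in 3' UTRs, near other listed sites and in sequence found in many genes. 3' UTRs held 27.8% (26.9 to 28.8) of the sites with 1 edited read, 31.7% (29.4 to 34.1) with 2 and 47.2% (37.4 to 57.1) with 3 or more. The 3' UTR share depends on how overlapping annotation is settled: counting every overlapping region it was 42.4% for 1 edited read and 51.9% for 3 or more. It also depends on depth: at 20 or more reads in both libraries it was 22.2% and 34.5%. Coding exons held 59.3%, 53.6% and 23.6%, and introns 6.58%, 8.4% and 17.9%. Another listed site lay within 50 bases of 24.4% (23.5 to 25.3), 26.3% (24.1 to 28.5) and 67.0% (57.2 to 75.8). The median depth in the fusion library moved with these classes, from 30 reads for 1 and 2 edited reads to 21.5 for 3 or more, and its part in the shares was not tested.

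The sequence around the sites was followed by counting the genes whose GENCODE transcripts hold the same 15 bases, centered on the site, on either strand. The window was found in 100 or more genes for 5.69% (5.2 to 6.22) of the 8026 sites with 1 edited read, 6.85% (5.59 to 8.29) of 1417 with 2 and 24.4% (15.8 to 34.9) of 86 with 3 or more. Other A within 50 bases of listed sites had such a window at 3.28%. Within 3' UTRs the shares were 16.6% (15.2 to 18.2), 17.3% (14.1 to 20.9) and 34% (21.2 to 48.8), and in coding exons 0.367%, 0.357% and 4%. Within 3' UTRs the share was thus also higher with 3 or more edited reads than with 1, which was not tested. Some of these sites are adjacent positions of the same gene, as in PEX26 and GM2A. The intervals treat sites as independent and do not measure a difference between the classes.

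Among the printed windows, that of IL17RA was held by 1453 genes, SLC35E2B by 823, APOL6 by 724 and RNF24 by 159. CRCP had 8 genes and BPNT1 2, and both DDX41 windows and that of LYST were found in 1 gene only. IL17RA, a receptor of interleukin 17, had 3 of 29 reads edited (10.3%, 2.19 to 27.4) against 0 of 36. No source used here says how reads that match many places were assigned, so the gene of a site with a widely shared window is less certain than that of DDX41 or LYST.

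Pairing of the transcript with itself was also looked for. A stretch of at least 100 bases with a reverse-complement match of at least 80% identity within 2000 bases contained 1.31% (1.07 to 1.58) of the sites with 1 edited read and 4.60% (1.27 to 11.4) of those with 3 or more, 4 of 87 sites. These shares move with the thresholds: they were 3.91% and 26.4% at 70% identity, and 0.56% and 1.15% within 1000 bases. Of 132 such sites, 129 were in 3' UTRs, and coding exons had 0 of 6048 (0% to 0.061%). Introns were not searched, since no genome sequence was used here. Among the 16 sites of 3' UTRs with 4 or more edited reads, those of APOL6 and ZNF431 lay in such a stretch.

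**Figure D4:**
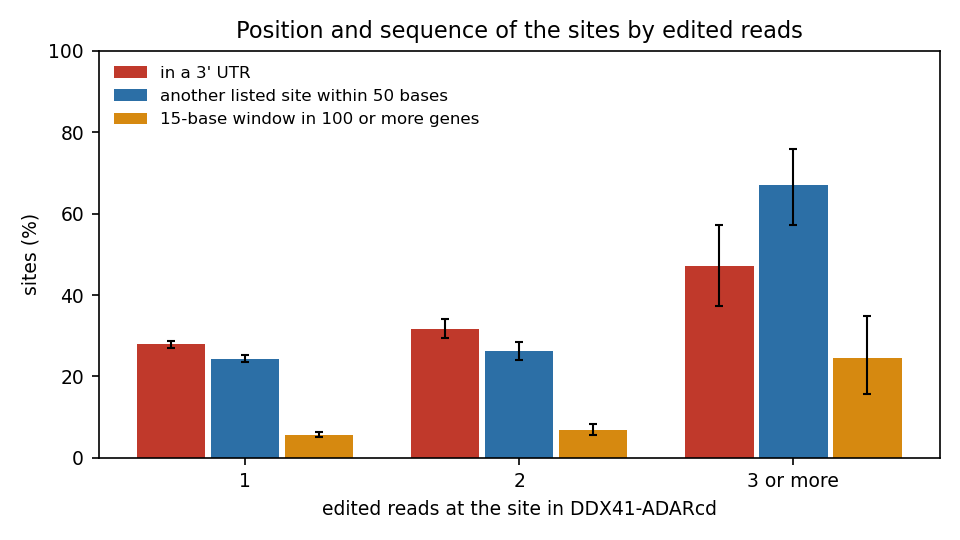
Share of sites (%, vertical axis) in a 3' UTR, with another listed site within 50 bases, and with a 15-base window held by 100 or more genes, by edited reads (horizontal axis), with exact 95% intervals. All 3 shares are higher at 3 or more edited reads, at 47.2%, 67.0% and 24.4%.

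In coding exons the sites were spread over codons in nearly the shares of all adenosines. Of 5866 sites with a codon, 74.3% (73.2 to 75.5) would change the amino acid and 25.7% (24.5 to 26.8) would not, against 75% and 25% of all other A of the same coding sequences. Codon positions 1, 2 and 3 held 32.2%, 41.7% and 26.2% of the sites and 33.7%, 40.4% and 25.9% of the other A. LYST, the regulator of lysosomal traffic that is lost in Chediak-Higashi syndrome, had the missense site with 4 of 94 reads (4.26%, 1.17 to 10.5) against 0 of 149. A site of ADARcd alone against the empty vector lay within 50 bases of 20.6% (19.5 to 21.7) of the coding sites with 1 edited read and 48% (27.8 to 68.7) of the 25 with at least 3, whose median depth was 221 reads. In 3' UTRs the same shares were 8.97% (7.86 to 10.2) and 2% (0.0506 to 10.6), at a median of 18.5 reads for at least 3.

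DDX41 itself, the partner in the fusion, was the gene with the highest ratio of reads between the libraries. Its 23 coding sites had 104 to 274 reads in DDX41-ADARcd and 20 to 48 in ADARcd alone, so the ranges did not overlap. Reads of the fusion and of the cell's own DDX41 cannot be told apart in these positions. Of the 23 sites, 14 had 1 edited read, 6 had 2, 1 had 3 and 2 had 8. At the missense site at position 177515022 of chromosome 5, 8 of 183 reads were edited (4.37%, 1.91 to 8.43) against 0 of 26, which allows up to 11.5%, and the unadjusted p was 0.600. At the synonymous site at position 177512584 it was 8 of 242 (3.31%, 1.44 to 6.41) against 0 of 43, up to 6.98% (unadjusted p 0.611). The depth of ADARcd alone at DDX41 could not show levels of this size.

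Over 527 genes with at least 5 sites, the reads in DDX41-ADARcd divided by those in ADARcd alone had a median of 0.659, and 8 of them lay above 1. HFM1, a DNA helicase of meiosis, came next to DDX41 with 1.61 (1.51 to 1.83). Its positions were also deep without a transgene. Where they were listed against the empty vector too, that library had 284 to 489 reads. Over all such shared positions its median was 29. SLCO5A1, a transporter, followed with 1.23, MED18, a subunit of Mediator, with 1.23 and ZNF431 with 1.17. Both of the last rest on few reads, with medians of 16 and 13 in DDX41-ADARcd, and their sites ranged from 0.5 to 1.38 and from 0.5 to 1.27. The lowest were ADARB1 with 0.217, the translation termination factor GSPT1 with 0.267, the G-protein subunit GNB4 with 0.286, ZNF611 with 0.333 and LYZ, the lysozyme of monocytes, with 0.341. ADARB1, which encodes the ADAR2 enzyme, had 173 to 294 reads in DDX41-ADARcd and 872 to 1356 in ADARcd alone at its 5 coding sites, with no overlap. ADAR, which encodes ADAR1, had 28 to 94 and 55 to 119 at 9 sites, with overlap. Both libraries carry ADARcd, and the labels do not name the gene it was taken from. Reads at the sites of ADARB1 and ADAR may thus come from the transgene or from the cell's own gene, which was not tested. GSPT1, GNB4 and ZNF611 rest on a median of 4 reads in DDX41-ADARcd.

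**Figure D5:**
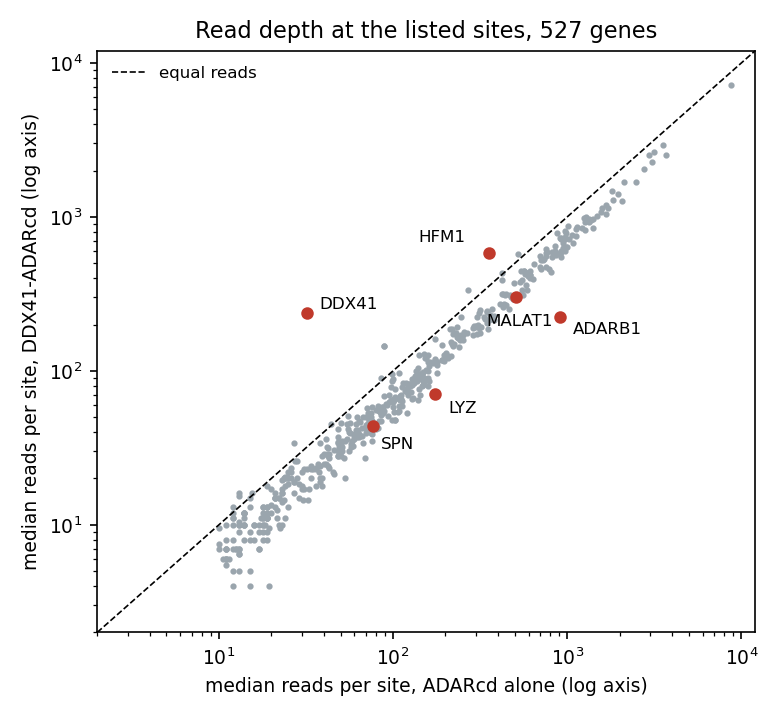
Median reads per listed site in ADARcd alone (horizontal, log axis) and in DDX41-ADARcd (vertical, log axis) for the 527 genes with 5 or more sites, each a point, with the line of equal reads. DDX41 (32 and 236 reads) and HFM1 (355 and 584.5) lie above the line, ADARB1 (909 and 223) far below it.

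Other mismatches outnumbered edited reads in several genes, HFM1 among them. Its 24 sites lay within 241 bases of an intron on chromosome 1, from 91387290 to 91387530, and held 43 edited reads. There 1.79% of the fusion library's reads and 1.33% of the other's carried another mismatch, 238 and 108 reads. In the fusion library SLCO5A1 had 30 such reads beside 9 edited reads, ACTB, the cytoskeletal actin, 89 beside 55, and CAP1 96 beside 94. Without HFM1 the other mismatches of the list were 0.123% in DDX41-ADARcd and 0.0956% in ADARcd alone. In the mitochondrial ND5, a subunit of complex I, 6 sites between positions 13773 and 13790 had 11 edited reads and 38 reads of other mismatches in DDX41-ADARcd against 19 in ADARcd alone. The site of ND5 with 4 of 347 edited reads (1.15%, 0.315 to 2.93) had 10 such reads.

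MALAT1, an abundant nuclear RNA, and TALAM1, the transcript credited to its opposite strand, had similar counts. MALAT1 had 45 sites and 58 edited reads, at median depths of 303 in the fusion library and 506 in the other. TALAM1 had 40 sites and 44 edited reads, at 252 and 460.5. No source used here says whether the libraries kept the strand, so A-to-G in TALAM1 and T-to-C in MALAT1 cannot be told apart. MALAT1's highest site had 3 of 174 reads edited (1.72%, 0.357 to 4.96) against 0 of 353, and TALAM1's 2 of 71 (2.82%, 0.343 to 9.81) against 0 of 119.

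SPN had 36 sites, 35 of them in the 3' UTR, at depths of 10 to 108 in the fusion library and 10 to 180 in the other. A single edited read was seen at 26, 2 reads at 7 and 3 or more at 3. The site with 4 of 31 reads (12.9%, 3.63 to 29.8) had 0 of 63 in ADARcd alone, and that with 3 of 23 (13.0%, 2.78 to 33.6) had 0 of 72. The 15-base window was held by 100 or more genes at 12 of its 36 sites. LYST had 43 sites, of which 29 were in introns, at a median of 8 reads over all its sites. Its 12 sites with 2 or more edited reads included 11 with 2.

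A stretch of chromosome 1, from 39 to 42 Mb, held 391 sites (3.76% of the list), of which 172 (44.0%) were intronic against 5.52% of all others. CAP1, a regulator of actin, had 80 sites and 94 edited reads there, the most of any gene, with at most 2 edited reads at a site. Its depth had a median of 1274 in the fusion library and 2059 in the other. NFYC, a subunit of the CCAAT-binding factor, had 58 sites at a median of 10 and 14 reads, 41 of them in introns. TRIT1, a tRNA-modifying enzyme, had 42 sites, 39 of them in introns. The median ratio of reads between the libraries was 0.634 in the stretch and 0.662 elsewhere, and 18.2% of its sites had at least 2 edited reads against 16%.

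Gene groups linked to the known roles of DDX41 were read against the 16.1% of all sites that had at least 2 edited reads. Among R-loop and DNA-damage factors, 27 of 112 sites in 30 genes did (24.1%, 16.5 to 33.1), and 0 had 3 or more (0%, against 1.02% over all). PRKDC, the DNA-dependent protein kinase, had 17 sites with at most 2 edited reads, H2AFX, the histone of damage foci, 4 of 7 sites with 2, and RIF1, a factor of end protection, 2 of 4 reads edited (50%, 6.76 to 93.2) against 0 of 34 at its top site. Spliceosome and SR proteins had 26 of 178 (14.6%, 9.77 to 20.7), with SRRM2 and SON at 22 and 20 sites. DExD/H-box helicases other than DDX41 had 8 of 70 (11.4%, 5.07 to 21.3), SNRNP200 and DDX6 with 1 each. With the 23 sites of DDX41, of which 9 had at least 2 edited reads, it was 17 of 93 (18.3%, 11 to 27.6). Innate sensing and interferon genes had 5 of 53 (9.43%, 3.13 to 20.7), with APOL6, MAVS, the adaptor of RNA sensing (9 sites, all in the 3' UTR), and ADAR at the most edited reads. For R-loop factors the interval began just above the share of all sites, while for the other 3 groups it included that share. R-loop factors were 1 of 21 lists looked at, and no list was tested.

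Ribosomal proteins and translation factors were deep and had low levels. Cytosolic ribosomal proteins had 429 sites in 76 of 81 genes, at a median of 603 and 856 reads and a median level of 0.182%. At least 2 edited reads were seen at 14.7% (11.5 to 18.4) of them. RPL13A, RPS3A and RPL4 had 15, 12 and 14 sites, with at most 2 edited reads at each. Translation factors had a median of 130 reads and a level of 0.82%, and 21 of 194 sites with at least 2 edited reads (10.8%, 6.83 to 16.1), an interval that ended just below the share of all sites. EEF1A1, the elongation factor that delivers tRNA, held 35 sites and 40 edited reads. Ribosome biogenesis proteins and tRNA synthetases were near the whole list, at 31 and 41.5 reads. Ribosome biogenesis and nucleolar proteins had 9 of 73 (12.3%, 5.80 to 22.1), tRNA synthetases 5 of 44 (11.4%, 3.79 to 24.6), HNRNP proteins 19 of 94 (20.2%, 12.6 to 29.8) and glycolytic enzymes 9 of 70 (12.9%, 6.05 to 23). Mitochondrially encoded genes had 29 of 148 (19.6%, 13.5 to 26.9) and histone genes 30 of 131 (22.9%, 16 to 31.1).

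The sequence shared between genes also varied between lists. Genes of the ZNF family had 35 of 186 sites with at least 2 edited reads (18.8%, 13.5 to 25.2) at a median of 10 reads, and 23.8% (17.6 to 31.0) of their sites had a window held by 100 or more genes. Endogenous A-to-I substrates had 62 of 240 sites (25.8%, 20.4 to 31.9) and 23.0% (17.4 to 29.3) with such a window. This list includes RNF24, APOL6, BPNT1, CRCP, GM2A, PGAM5, SPN and LYST, which were picked with results of these libraries known, so its share is no independent evidence. Ribosomal proteins had such a window at 0.238% of their sites. Monocytic markers were listed for 14 of 25 genes, among them PRTN3, LYZ and SPI1, and also SPN, a protein of leukocytes in general. Of shorter lists for T, B, erythroid and epithelial cells, 0 of 5, 0 of 5, 0 of 5 and 0 of 4 were listed. Only positions with an edited read and 10 reads in ADARcd alone could appear.

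The list against the empty vector held 3114 of these sites (29.9%, 29 to 30.8), which were 88.6% of its own 3516. The shared sites were the deeper ones, where the fusion library had a median of 204.5 reads, against 18 at the other 7293. The empty vector had a median of 29 reads at the shared sites. The share was 30% (29 to 30.9) for sites with 1 edited read, 30.2% (27.9 to 32.5) with 2 and 23.6% (15.9 to 32.8) with 3 or more, and none of the 8 that had 5 or more was shared (0%). These 8 had a median of 19 reads in the fusion library. Their depth in the empty vector is not known, so the 0% does not show that the empty vector carried edits there. No site was at a position listed for ADARcd alone against the empty vector, since the list allows no edited read there.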

How the data were processed

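HyperTRIBE sequencing of THP-1 cells was deposited as 3 lists of A-to-G sites from 3 libraries. The values are counts, per the file headers: base reads and totals at each position in 2 libraries, with no normalization by the authors. The submitters' processing notes list CASAVA 1.4, FastQC 0.11.7 and STAR 2.5, and as build mm10, a mouse genome. No source used here gives the site caller or its filters. The columns carry no library name: those without suffix were taken as DDX41-ADARcd and those marked gDNA/wtRNA as ADARcd alone. Each listed site has 10 or more reads, 0 edited reads and at least 80% A in ADARcd alone. Of the sites with a gene name in GENCODE 29 (GRCh38), 99.1% lay inside that gene, and 99.9% of those on a transcript were A there, so GRCh38 positions are given.

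From 10591 entries 184 repeats were joined. A site in several annotated features took coding exon first, then UTRs, other exons and introns. Fisher's exact test (scipy 1.17.1) was two-sided with a minimum of 10 reads in each library and Benjamini-Hochberg adjustment, and compares libraries, not conditions. On simulated reads with the depths of the 8827 tested sites and 0.1% background it called 11, 11, 24 and 38 of 50 sites at 5%, 10%, 20% and 50%, with 0 false calls. Unlike the list, the simulation required neither an edited read in DDX41-ADARcd nor 0 edited reads in ADARcd alone. Its counts therefore check the step and do not give the sensitivity or the false calls on the list. Inverted repeats were searched with blastn 2.17.0 on transcripts. Distances to snoRNAs were not used except for the RPL17 site, since the annotation lacks those of GAS5. Members, gene lists and tests were chosen with earlier results of these data known.

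Named were sites with 4 or more edited reads, the 10 genes with most sites, with most sites of 2 or more edited reads and with the highest level at 20 or more reads in both libraries, the 10 smallest p, the 5 genes with most clustered sites, up to 3 members per gene list and sites per region, the 5 highest and lowest read ratios, and DDX41, ADAR and ADARB1. Alternatives were other minimums of reads, adjustments, distances, identities, regions and subsets of sites. The counts of genes that share a window, the values without HFM1 or without sites of other mismatches, and the helicase list with DDX41, were added after seeing the data. Some sequences are not reported here.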

Additional observations from a re-analysis of the deposited data

How the results depend on the processing

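Of 80 alternatives over 22 results, 47 stayed within the interval or count of the reported value and 33 moved. The count of sites past the test was also 0 with other minimums of reads, a threshold of 0.1, A reads only, entries as deposited and sites with 2 or more edited reads. Bonferroni adjustment and halved reads could only have lowered it and show no stability. The smallest adjusted p ran from 0.261 to 1. The median level was 2.78% at 10 reads in both libraries, 1.64% at 20, 0.735% at 50 and 4.55% without sites of another mismatch, and the read ratio was 0.672 at 20 reads. Other mismatches were 0.129% at 20 reads, 0.123% without HFM1 and a median of 0 over sites with 100 or more reads. For sites with 1 edited read, a guanine followed at 35.8% in 3' UTRs, and preceded at 30.7% with 1 site per gene, 31.8% in coding exons and 22.6% in 3' UTRs. With 3 or more it followed at 28% in coding exons, and preceded at 36% there and 12% in 3' UTRs. The share in 3' UTRs for 1 edited read was 42.4% over all overlapping regions, 22.2% at 20 reads and 30.4% with 1 site per gene, and for 3 or more 34.5% at 20 reads. Another site lay within 20 bases of 15.8% and within 100 bases of 31.4% of those with 1 edited read (22.8% within 50 without mitochondrial sites and the chromosome 1 stretch), and within 20 bases of 48.1% of those with 3 or more. Inverted repeats at 70% identity held 3.91% and 26.4%, and within 1000 bases 0.56% and 1.15%. Windows in 20 or more genes made up 8.44% and 41.9%, and in 500 or more 3.68% for 1 edited read. With at least 3 edited reads, ribosomal proteins, snoRNA hosts and innate genes had 1.4%, 2.94% and 1.89% of their sites, against 1.02% over all sites. These are 6 of 429, 4 of 136 and 1 of 53 sites, and were not tested. They are fewer than with at least 2 by construction. Other causes were not tested. No paired analysis was possible because each group had 1 library. At the median depths, levels under 13.3% could not reach an unadjusted p under 0.05, and levels under 40% could not reach 0.05 divided by the sites tested.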
